A study of Mus musculus with 6 samples.

Results

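The genes described here are 44 mouse genes of the dividing cell, 19 that act in DNA replication (S phase) and 25 that act in mitosis. They are the rows of the deposited count table whose gene name is on a fixed list of cell cycle genes, 44 of 54532 genes in the table, and the rule uses no measured value. All 44 names were found, each once. The study profiled normal Merkel cells, the neuroendocrine touch receptor cells of the epidermis, beside bulk skin in order to set treated Merkel cell carcinoma cells against them. Epidermis was taken from the back skin of C57BL/6 mice of both sexes aged 4 weeks, with no genetic change or drug treatment in either group, and was dissociated with enzymes. NCAM-enriched cells (3 libraries) were labelled as Merkel cells and had been pulled down with beads against NCAM, a surface adhesion molecule of these cells, before NCAM-positive, DAPI-negative cells were sorted. Bulk skin (3 libraries) was sorted for living, DAPI-negative cells without a marker. Each library was made by Smart-seq2, a full-length method for little RNA, from 500 sorted cells.

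Before a cell divides it copies its genome once. In G1 the MCM2-7 helicase is loaded onto replication origins, in S phase it is switched on and followed by polymerases that need a sliding clamp and a supply of nucleotides, and in mitosis cyclin B with CDK1, the Aurora and Polo kinases, the kinetochores and the spindle part the copies. Transcripts of the replication genes are made mostly from the G1/S boundary under E2F factors, and those of the mitosis genes later, in G2 and M, through promoters with CCAAT boxes and a CHR element (cell cycle genes homology region). In the epidermis dividing cells lie in the basal layer and in the growing hair follicle, and mature Merkel cells are taken to be postmitotic.

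Since E2F and CHR letters are the textbook marks of these promoters, 5 of them are shown first. RefSeq promoters of GRCm38.p6, from 250 bases before to 50 bases after the gene start, were at hand for 37 of the 44 members, 16 of S phase and 21 of mitosis. They were searched on both strands for the CHR (TTTGAA or TTCGAA), for 4 spellings of the E2F motif (TTTCGCGC, TTTGGCGC, TTTCCCGC or TTTGCCGC) and for the CCAAT box (CCAAT). The 2 S phase promoters are those with the smallest p of the expression test among holders of an E2F motif, and capitals mark E2F motifs and CCAAT boxes, which read ATTGG on the other strand. In Mcm5 (chr8:75109259-75109558, plus strand) 2 E2F spellings overlap on opposite strands, and in Mcm6 (chr1:128359656-128359955, minus strand) the same occurs once beside a further E2F motif.
Mcm5: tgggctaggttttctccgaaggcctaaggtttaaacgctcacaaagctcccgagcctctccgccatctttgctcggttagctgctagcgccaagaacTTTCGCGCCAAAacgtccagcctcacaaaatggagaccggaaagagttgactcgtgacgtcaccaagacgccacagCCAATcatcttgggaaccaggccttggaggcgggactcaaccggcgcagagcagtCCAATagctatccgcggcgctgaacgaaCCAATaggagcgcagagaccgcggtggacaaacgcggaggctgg
Mcm6: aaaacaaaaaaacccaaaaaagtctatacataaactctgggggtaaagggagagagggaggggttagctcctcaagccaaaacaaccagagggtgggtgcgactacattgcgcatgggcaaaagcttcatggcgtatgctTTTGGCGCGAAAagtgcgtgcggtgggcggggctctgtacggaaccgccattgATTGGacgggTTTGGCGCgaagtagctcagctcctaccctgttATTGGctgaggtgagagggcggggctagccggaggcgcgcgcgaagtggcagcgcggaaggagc
The 3 mitosis promoters are those of Ccnb2 (chr9:70421505-70421804, minus strand) and Cenpa (chr5:30666636-30666935, plus strand), chosen in the same way among holders of a CHR, and of Cdc20 (chr4:118437294-118437593, minus strand). Cdc20 is shown because it holds the same motifs while its fitted log2 fold change was not below 0. That value had no stable sign and was -1.22 without NCAM-enriched replicate 2. Capitals mark the CHR and the CCAAT boxes.
Ccnb2: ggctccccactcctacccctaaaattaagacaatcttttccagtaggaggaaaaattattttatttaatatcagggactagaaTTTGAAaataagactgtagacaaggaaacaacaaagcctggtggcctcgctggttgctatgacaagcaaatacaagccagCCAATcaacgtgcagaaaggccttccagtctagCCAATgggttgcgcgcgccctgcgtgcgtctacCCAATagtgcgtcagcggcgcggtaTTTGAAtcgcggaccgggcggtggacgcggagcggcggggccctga
Cenpa: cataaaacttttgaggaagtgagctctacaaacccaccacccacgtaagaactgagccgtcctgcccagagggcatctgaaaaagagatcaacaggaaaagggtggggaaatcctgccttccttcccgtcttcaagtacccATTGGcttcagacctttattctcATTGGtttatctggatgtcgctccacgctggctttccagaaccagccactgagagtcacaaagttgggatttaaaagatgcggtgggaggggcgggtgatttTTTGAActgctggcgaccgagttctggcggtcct
Cdc20: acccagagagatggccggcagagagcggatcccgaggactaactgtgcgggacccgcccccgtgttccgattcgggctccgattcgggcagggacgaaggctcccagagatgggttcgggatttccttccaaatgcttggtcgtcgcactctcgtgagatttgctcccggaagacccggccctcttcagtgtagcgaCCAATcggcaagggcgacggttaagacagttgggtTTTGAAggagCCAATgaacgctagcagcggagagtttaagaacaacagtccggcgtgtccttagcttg
Motifs were counted by gene, over any of its promoters. A CHR was found in 16 of 21 mitosis genes (76.2%) and in 3 of 16 S phase genes (18.8%). Of all 27025 genes with a promoter, 21.7% held a CHR. An E2F motif was found in 7 of 16 S phase genes (43.8%) and in 1 of 21 mitosis genes (4.76%), Cdk1, against 2.6% of all genes. CCAAT boxes were present in 11 of 16 S phase and 17 of 21 mitosis genes (41.1% of all genes). CHR and CCAAT box stood in the same promoter in 3 of 16 and 15 of 21 (8.61% of all genes). In 15 of the 16 mitosis genes with a CHR, a CHR was centred within 50 bases of the start, as the map of motif positions shows. A match is a description of the letters and not a measured binding site.

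**Figure D1:**
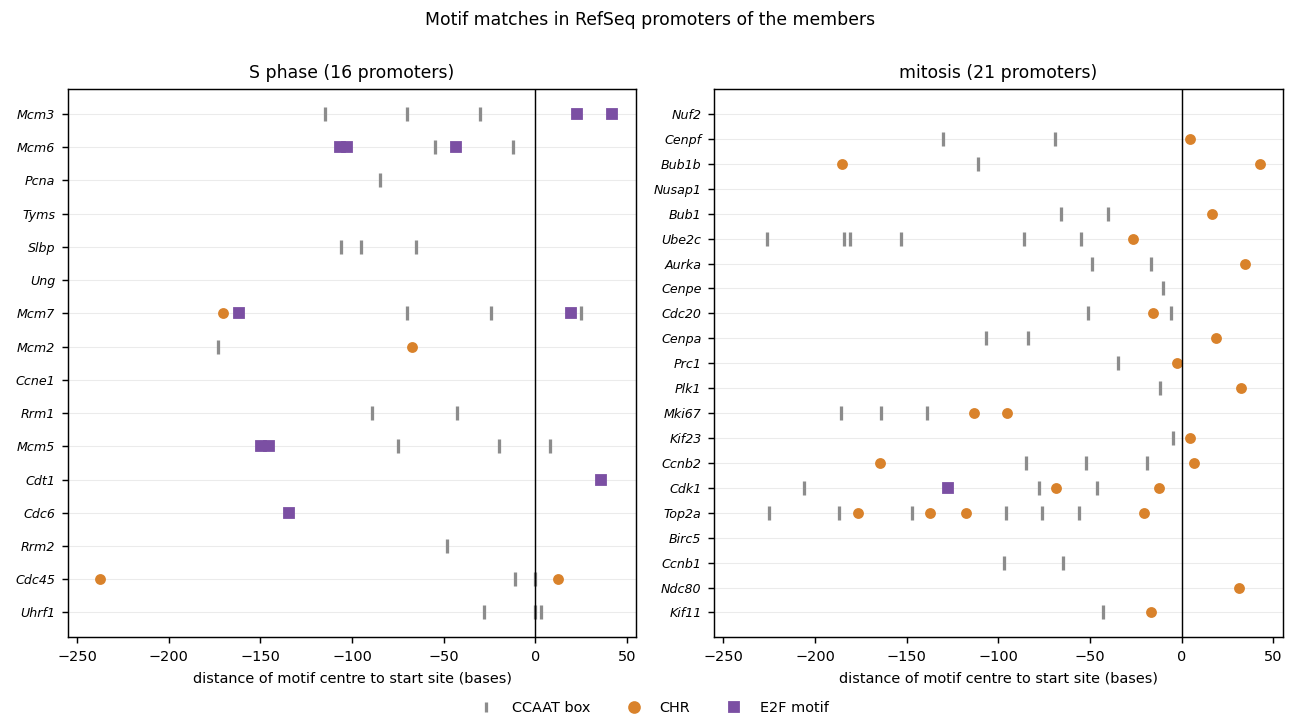
Motif matches in the RefSeq promoters of 16 S phase members (left) and 21 mitosis members (right), 1 gene per line, with the distance of each motif's centre from the gene start in bases on the x axis. Circles mark CHR elements (16 of 21 mitosis genes, 3 of 16 S phase genes), squares E2F motifs (7 of 16 and 1 of 21) and grey bars CCAAT boxes. Counts cover any promoter of a gene, while only the first listed promoter is drawn. The E2F match of Uhrf1 lies in its other promoter and is not drawn.

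Library totals ran from 1343190 to 3798136 counts in the NCAM-enriched group and from 3333753 to 4481830 counts in bulk skin, so that 1 count was worth 0.284 to 0.773 and 0.216 to 0.310 normalised CPM (counts scaled to library size with edgeR's TMM factors). The labelled cell type was checked on Merkel cell markers, of which 5 of 11 tested were called higher, with a summed level of 498 to 1771 CPM against 143 to 191 CPM. Suprabasal keratinocyte markers were also higher (8 of 10 called, 14103 to 36499 against 1475 to 1656 CPM), and fibroblast markers summed to 33144 CPM in NCAM-enriched replicate 2 but to 81.2 and 437 CPM in the other two NCAM-enriched libraries, against 10410 to 18257 CPM in bulk skin. Of 7 fibroblast markers edgeR called 0, with 1 lower at an unadjusted p of at most 0.05, DESeq2 called 0 and limma-voom 3 lower. In the list of immune markers of T and NK cells, 9 of 11 tested were called lower (42.0 to 170 against 4009 to 4277 CPM), with Cd2, Cd3d and Trac at 0 in all NCAM-enriched libraries. Gzmb, not tested, had 1 count in all 6 libraries together. Of 12 Langerhans and myeloid markers 8 were called lower (511 to 1064 against 12845 to 21317 CPM), with Itgax at 0 in that group. Basal keratinocyte markers had 0 of 11 called by edgeR, by DESeq2 or by limma-voom, with 0 of 11 at an unadjusted p of at most 0.05 in edgeR (8946 to 32679 against 13490 to 17540 CPM), and hair follicle markers had 1 called higher and 1 lower of 11 (6385 to 28934 against 2240 to 2906 CPM), with Shh at 0 throughout and Krt35 at 0 in bulk skin. Of the melanocyte markers 1 was tested and not called (15.6 to 142 against 10.6 to 35.4 CPM, with Mlana at 0 throughout). The part of these cell mixtures in the values of the cell cycle genes was not tested.

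Most replication and mitosis genes had lower levels in the NCAM-enriched libraries, but none passed the test. Of the 43 members with enough counts to be tested, 37 had a log2 fold change below 0 (17 of 19 S phase and 20 of 24 mitosis genes), which was so for 52.3% of all 13157 genes tested. The median log2 fold change of NCAM-enriched over bulk skin was -1.35 over the members, -1.43 for S phase and -0.87 for mitosis, and -0.07 over all genes. For 23 members all 3 NCAM-enriched libraries lay below all 3 bulk skin libraries, 14 of 19 S phase genes and 9 of 24 tested mitosis genes, against 19.3% of all genes. No member had the groups apart in the other direction, beside 11.1% of all genes. edgeR's quasi-likelihood test with Benjamini-Hochberg adjustment called 0 of 43 members in either direction at an adjusted p of at most 0.05, where it called 2.59% of all genes, 1.55% as lower. At an unadjusted p of at most 0.05, 7 S phase and 4 mitosis members were lower and 0 were higher. Of all genes 10.2% were lower at such a p, and 1148 of 13157 were higher. Adjusted p ran from 0.0997 to 0.988 for S phase and from 0.0792 to 0.970 for mitosis members, and the standard errors from 0.43 to 1.72 on the log2 scale. DESeq2 called 4 members lower (Pcna, Ccnb2, Birc5 and Cenpa), beside 7.1% of all genes it called lower, and limma-voom called 0, beside 6.45% of all genes. edgeR with every gene of at least 1 count kept in called 5 lower (Mcm2, Birc5, Ccnb2, Cdk1 and Cenpa), beside 2.66% of all genes. Exonic bases were shared with another gene in 13 members, among them Kif20a (29.3%, with Cdc23) and Ube2c (22.8%, with Tnnc2), and reads there cannot be assigned. In samples of sorted cells, fewer dividing cells and less RNA of these genes per cell cannot be told apart.

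**Figure D2:**
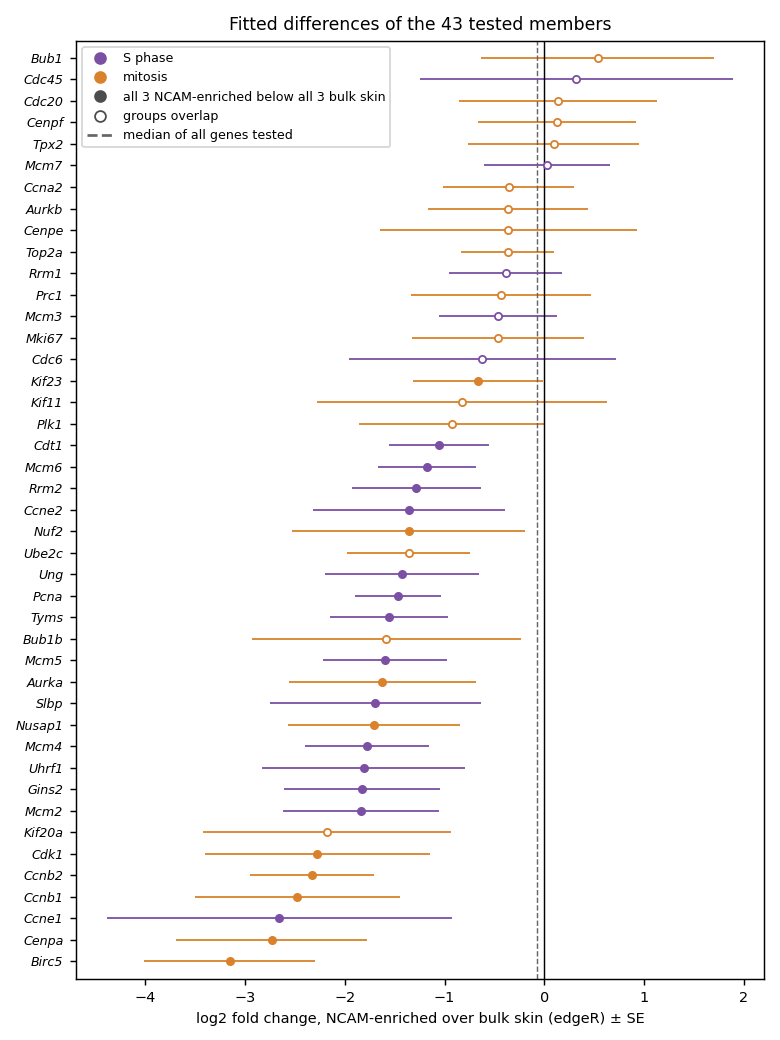
Fitted log2 fold change (NCAM-enriched over bulk skin, edgeR) ± SE on the x axis for the 43 tested members, ordered by value on the y axis and coloured by class. Filled points are the 23 members whose groups did not overlap, 14 of S phase and 9 of mitosis, and the dashed line is the median of all genes tested at -0.07.

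Among the helicase subunits Mcm2, Mcm4, Mcm5 and Mcm6 had groups that did not overlap, while Mcm3 and Mcm7 overlapped. Library values are given in the order of replicates 1 to 3. Mcm2 (chr6:88883474-88898780 of GRCm38, minus strand), a subunit of the replicative helicase and a routine proliferation marker, had 43.04, 3.09 and 44.6 CPM in the NCAM-enriched libraries and 108, 137 and 83.9 CPM in bulk skin. NCAM-enriched replicate 2 was far below the other two, and all 3 lay below bulk skin (log2 fold change -1.84 ± 0.78 (SE, n = 3 per group), adjusted p = 0.248 in edgeR). Mcm4 (chr16:15623897-15637400, minus strand), another subunit of that ring, had 31.9, 7.73 and 37.7 CPM in the NCAM-enriched libraries and 102, 69.4 and 96.5 CPM in bulk skin. The groups did not overlap and replicate 2 was again the lowest (log2 fold change -1.78 ± 0.62 (SE, n = 3 per group), adjusted p = 0.158 in edgeR). Mcm6 (chr1:128331590-128359664, minus strand) had 27.6, 65.7 and 97.05 CPM in the NCAM-enriched libraries and 161, 137 and 132 CPM in bulk skin, with the groups apart and a spread among the NCAM-enriched libraries wider than in bulk skin (log2 fold change -1.17 ± 0.49 (SE, n = 3 per group), adjusted p = 0.236 in edgeR). Mcm5, whose promoter is printed above, had 17.5, 20.1 and 76.3 CPM in the NCAM-enriched libraries and 139, 113 and 97.1 CPM in bulk skin, all 3 below bulk skin. Mcm3 had a log2 fold change of -0.46 ± 0.59 (SE) with NCAM-enriched replicate 2 at 101 CPM, above every bulk skin library. Mcm7 was at 0.03 ± 0.64 (SE), with 139, 57.2 and 22.1 CPM in the NCAM-enriched libraries and 74.8, 83.4 and 55.9 CPM in bulk skin, and 12.6% of its exonic length is shared with other genes, whose reads cannot be told apart here. The subunits of the same ring were not equal within a library. In NCAM-enriched replicate 2, Mcm2 and Mcm4 were at 0.444 and 2.15 CPM per kilobase of exonic length and Mcm3 at 26.98.

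Among the loading factors and the partners of the helicase, Cdc6 and Cdc45 had the widest spread between NCAM-enriched libraries, with coefficients of variation of 113% and 157%. Cdt1, which brings the MCM ring to origins, had 35.1, 21.6 and 27.8 CPM in the NCAM-enriched libraries and 55.6, 53.2 and 67.2 CPM in bulk skin, a narrow spread and no overlap (log2 fold change -1.05 ± 0.503, SE). Cdc6, its partner in loading, had 14.9, 0 and 5.11 CPM in the NCAM-enriched libraries and 11.8, 9.08 and 10.1 CPM in bulk skin and overlapped. Cdc45, which joins the helicase when it is switched on, had 5.85, 88.9 and 0 CPM in the NCAM-enriched libraries and 9.31, 16.4 and 49.1 CPM in bulk skin. NCAM-enriched replicate 2 gave 93.8% of the summed CPM of Cdc45 in that group, and its log2 fold change of 0.32 ± 1.57 (SE) rested on that library. Gins2, a subunit of the GINS complex that completes the active helicase, had 35.6, 4.64 and 36.6 CPM in the NCAM-enriched libraries and 146, 87.98 and 41.7 CPM in bulk skin with no overlap, although 67.3% of its exonic length is shared with Gse1.

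Pcna, Tyms and Rrm2 had groups that did not overlap, and Rrm1 overlapped. Pcna (chr2:132249162-132253314, minus strand), the sliding clamp that holds polymerases on DNA, had 33.5, 57.9 and 77.8 CPM in the NCAM-enriched libraries and 184, 125 and 161 CPM in bulk skin. Each NCAM-enriched library was below each bulk skin library, and Pcna had the smallest p of the S phase members (log2 fold change -1.47 ± 0.43 (SE, n = 3 per group), adjusted p = 0.0997 in edgeR). Group means were 56.4 ± 22.2 CPM against 156 ± 29.8 CPM (SD, n = 3). Tyms (chr5:30058202-30073617, minus strand), the enzyme that makes thymidylate, had 29.8, 54.9 and 15.04 CPM in the NCAM-enriched libraries and 146, 74.6 and 70.5 CPM in bulk skin, with the groups apart and replicate 3 the lowest (log2 fold change -1.56 ± 0.59 (SE, n = 3 per group), adjusted p = 0.197 in edgeR). The table also lists pseudogene copies of Pcna, Tyms, Ccnb1 and Ccnb2, and how reads were split between a gene and its copies is uncertain. Rrm1 (chr7:102441695-102469771, plus strand), the large subunit of ribonucleotide reductase, had 122, 25.5 and 88.8 CPM in the NCAM-enriched libraries and 139, 91.2 and 80.1 CPM in bulk skin. Its groups overlapped, with replicates 1 and 3 inside the bulk skin range (log2 fold change -0.39 ± 0.57 (SE, n = 3 per group), adjusted p = 0.782 in edgeR). Rrm2, the small subunit whose amount changes with the cell cycle, had 20.7, 10.04 and 43.7 CPM in the NCAM-enriched libraries and 77.3, 44.3 and 61.7 CPM in bulk skin and did not overlap (log2 fold change -1.28 ± 0.65, SE).

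Among the other S phase genes, Ung, which removes uracil from DNA, Uhrf1, which guides maintenance methylation to newly copied DNA, and Slbp, which binds the stem-loop of histone transcripts, had groups that did not overlap. Their log2 fold changes were -1.43 ± 0.77, -1.81 ± 1.02 and -1.69 ± 1.05 (SE). Slbp had no count in NCAM-enriched replicate 2, where 3 counts would be 2.32 CPM, while the other two libraries held 41.4 and 45.4 CPM and bulk skin 84.3 to 101 CPM. The E cyclins, which drive entry into S phase, were low: Ccne1 had 0, 7 and 0 counts in the NCAM-enriched libraries against 47, 37 and 33 in bulk skin, and Ccne2 had 10.6, 1.55 and 13.6 CPM in the NCAM-enriched libraries and 22.04, 21.2 and 23.9 CPM in bulk skin. Neither overlapped between groups, and neither passed (edgeR adjusted p = 0.465 and 0.509).

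**Figure D3:**
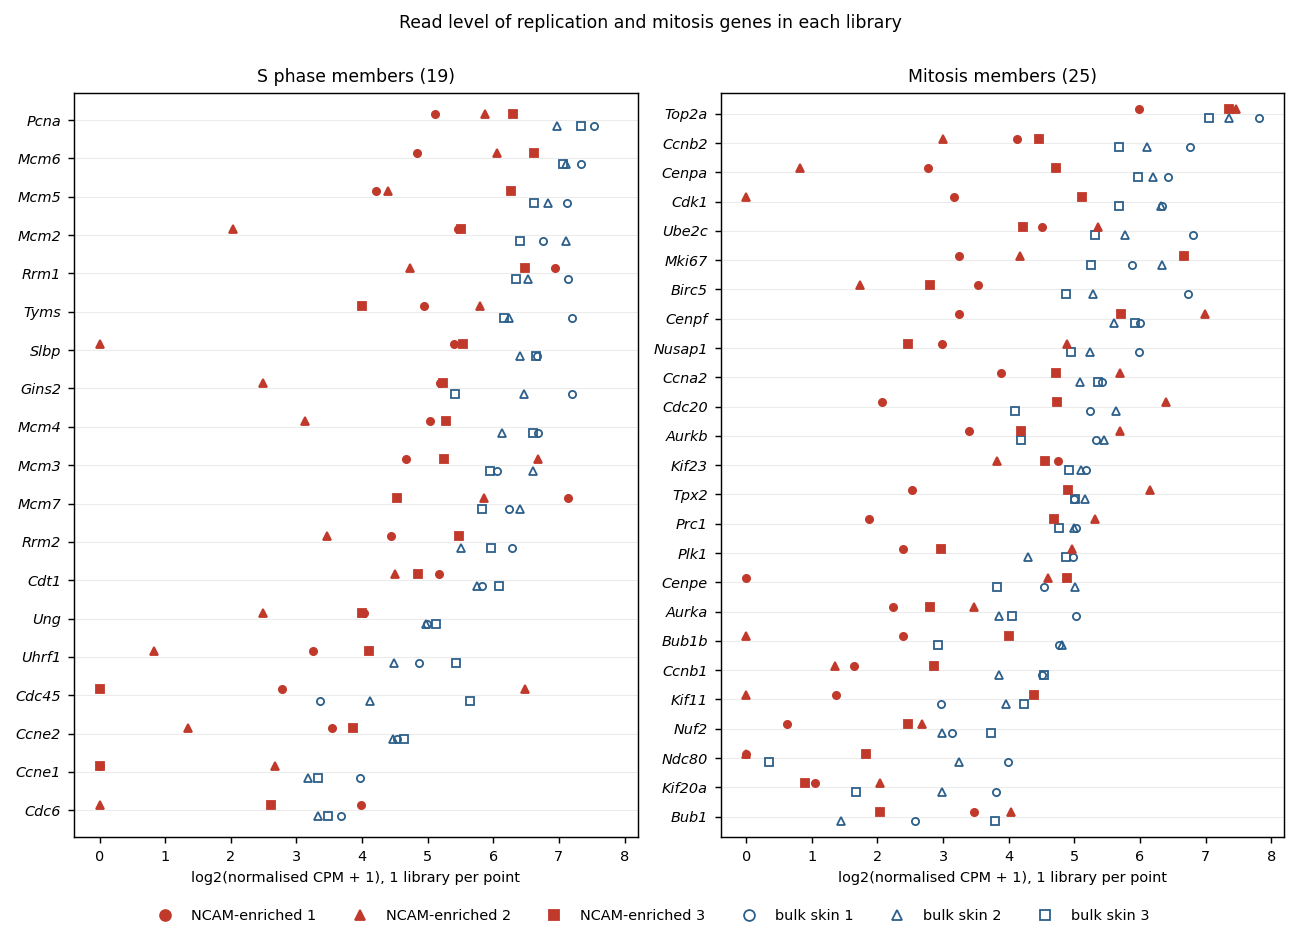
Level of each of the 19 S phase members (left) and 25 mitosis members (right) in every library, as log2(normalised CPM + 1) on the x axis, with filled symbols for the 3 NCAM-enriched and open symbols for the 3 bulk skin libraries. For 14 S phase members all filled symbols lie left of all open ones, while in mitosis genes such as Cenpf, Cdc20 and Tpx2 NCAM-enriched replicate 2 lies right of every bulk skin library.

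Mitosis genes split into some with the groups far apart and others with overlapping groups. Ccnb2 (chr9:70407692-70421547, minus strand), a B-type cyclin that activates CDK1, had 16.5, 6.95 and 20.998 CPM in the NCAM-enriched libraries and 108, 68.1 and 50.4 CPM in bulk skin. The highest NCAM-enriched library was below the lowest bulk skin library, and Ccnb2 had the smallest p of all members (log2 fold change -2.33 ± 0.62 (SE, n = 3 per group), adjusted p = 0.0792 in edgeR). Birc5 (chr11:117849251-117855743, plus strand), survivin of the chromosomal passenger complex, had 10.6, 2.32 and 5.96 CPM in the NCAM-enriched libraries and 105, 37.8 and 28.2 CPM in bulk skin. Bulk skin replicate 1 was the highest, and the groups did not overlap (log2 fold change -3.16 ± 0.86 (SE, n = 3 per group), adjusted p = 0.0829 in edgeR). Cenpa (chr5:30666777-30674830, plus strand), the histone H3 variant of centromeres, had 5.85, 0.773 and 25.3 CPM in the NCAM-enriched libraries and 85.4, 72.6 and 61.96 CPM in bulk skin, with the NCAM-enriched libraries spread widely under a tight bulk skin group (log2 fold change -2.73 ± 0.96 (SE, n = 3 per group), adjusted p = 0.1598 in edgeR). Ccnb1 had 2.13, 1.55 and 6.24 CPM in the NCAM-enriched libraries and 21.7, 13.4 and 22.2 CPM in bulk skin, and Cdk1, the kinase that both B cyclins activate, had 7.97, 0 and 33.8 CPM in the NCAM-enriched libraries and 79.5, 78.9 and 50.4 CPM in bulk skin. Neither gene had overlapping groups, at log2 fold changes of -2.48 ± 1.03 and -2.28 ± 1.13 (SE). Ccna2, the A cyclin that acts from S phase to mitosis, differed from the B cyclins in that its groups overlapped (13.8, 50.99 and 25.3 CPM in the NCAM-enriched libraries and 41.9, 33.1 and 40.03 CPM in bulk skin).

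Mki67, Top2a and Cenpf, the mitosis genes with the highest mean CPM, overlapped between groups, unlike the S phase markers Pcna and Mcm2. Mki67 (chr7:135689784-135716361, minus strand), the Ki-67 coat protein of mitotic chromosomes, had 8.502, 16.998 and 100.5 CPM in the NCAM-enriched libraries and 58.1, 80.2 and 37.3 CPM in bulk skin. Replicate 3 was above all bulk skin libraries and replicates 1 and 2 were below them (log2 fold change -0.46 ± 0.86 (SE, n = 3 per group), adjusted p = 0.835 in edgeR). Top2a (chr11:98992943-99024189, minus strand), the topoisomerase that untangles sister chromatids, had 62.2, 176 and 163 CPM in the NCAM-enriched libraries and 224, 164 and 131 CPM in bulk skin, so replicates 2 and 3 lay inside the bulk skin range (log2 fold change -0.37 ± 0.46 (SE, n = 3 per group), adjusted p = 0.739 in edgeR). Cenpf (chr1:189640606-189688086, minus strand), a large outer kinetochore protein, had 8.502, 127 and 51.4 CPM in the NCAM-enriched libraries and 63.03, 47.8 and 59.5 CPM in bulk skin, with replicate 1 below, replicate 2 above and replicate 3 within the bulk skin range (log2 fold change 0.13 ± 0.79 (SE, n = 3 per group), adjusted p = 0.956 in edgeR).

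Of the kinase, kinetochore and spindle genes described next, Aurka, Nuf2, Kif23 and Nusap1 had groups that did not overlap. Aurka, the Aurora kinase of spindle poles, did not overlap between groups (log2 fold change -1.63 ± 0.94, SE). Aurkb, the Aurora kinase of the passenger complex that survivin belongs to, had 9.56, 50.99 and 17.3 CPM in the NCAM-enriched libraries and 39.4, 42.8 and 17.3 CPM in bulk skin and overlapped, and so did Plk1, the Polo kinase (-0.92 ± 0.93). At the kinetochore, Nuf2 was apart (-1.36 ± 1.17), Cenpe, a kinesin, overlapped (-0.36 ± 1.29), and Ndc80, the partner of Nuf2 in binding microtubules, was too low to be tested with 0, 0 and 9 counts against 48, 39 and 1. The checkpoint kinase gene Bub1 had the highest log2 fold change of all members at 0.54 ± 1.17 (SE) from 10.1, 15.5 and 3.12 CPM in the NCAM-enriched libraries and 4.97, 1.73 and 12.9 CPM in bulk skin, while Bub1b, which encodes BubR1 of the same checkpoint, was at -1.58 ± 1.35, and both overlapped. Among spindle genes, Kif23, a motor of the midzone, and Nusap1, which bundles microtubules, were apart (-0.67 ± 0.65 and -1.71 ± 0.86). The motors Kif11 and Kif20a, the midzone bundler Prc1 and the spindle assembly factor Tpx2 overlapped (-0.83 ± 1.45, -2.18 ± 1.24, -0.43 ± 0.91 and 0.09 ± 0.86). Kif11 had 1.59, 0 and 19.9 CPM in the NCAM-enriched libraries and 6.83, 14.5 and 17.8 CPM in bulk skin, replicate 3 held 92.6% of the summed CPM of its group, and the log2 fold change was -3.90 without that library and -0.27 without replicate 2. Of the 2 members that work with the anaphase-promoting complex, the ubiquitin-conjugating enzyme gene Ube2c was at -1.36 ± 0.61 and the activator gene Cdc20 at 0.13 ± 0.99, with 3.19, 83.4 and 25.5 CPM in the NCAM-enriched libraries and 36.6, 48.6 and 16.2 CPM in bulk skin. Replicate 2 alone held more Cdc20 than any bulk skin library, and it gave 74.4% of the summed CPM of the group.

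Library by library, the summed S phase level varied less than the summed mitosis level in the NCAM-enriched group, while the median level of a gene varied in both classes. These medians were 27.6, 10.04 and 36.6 CPM for S phase and 5.85, 15.5 and 19.9 CPM for mitosis in NCAM-enriched replicates 1 to 3. The summed level of the 19 S phase genes was 657, 531 and 699.8 CPM in the NCAM-enriched libraries and 1617, 1302 and 1276 CPM in bulk skin, or 629 ± 87.9 against 1398 ± 189 CPM (SD, n = 3), 0.450 times the bulk skin mean, with no overlap. The summed level of the 25 mitosis genes was 236, 795 and 661 CPM against 1291, 1006 and 779 CPM, or 564 ± 292 against 1025 ± 257 CPM (SD, n = 3), and NCAM-enriched replicate 2 lay above bulk skin replicate 3. Per kilobase of exonic length, the ratio of summed S phase to summed mitosis levels was 2.51, 0.768 and 1.37 in the NCAM-enriched libraries and 1.17, 1.28 and 1.78 in bulk skin. On the log2 scale this balance was 0.47 ± 0.86 against 0.47 ± 0.32 (SD, n = 3), a difference of -0.0036 that is smaller than the spread within either group. Leaving out 1 library at a time moved the difference between -0.44 and 0.42.

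Replicates 1 and 2 of the NCAM-enriched group ordered the classes differently. In replicate 1, 24 of 25 mitosis genes and 16 of 19 S phase genes were below the bulk skin range, and the median log2 ratio of CPM + 1 to the bulk skin mean was -2.34 for mitosis and -1.44 for S phase. In replicate 2 these medians were -0.60 and -2.46, with 7 mitosis genes above the bulk skin range and 13 below it, and 2 S phase genes above and 16 below. Replicate 3 had medians of -0.70 and -1.03. The share of all genes outside the bulk skin range in each library was not computed, so these counts do not show that the members stood apart. Replicate 2 is the library with 33144 CPM of fibroblast markers and the fewest counts, and its part in the mitosis values was not tested. Replicate 3 had the lowest sum of Merkel cell markers, 498 CPM against 1707 and 1771 CPM in replicates 1 and 2. It also had the highest sums of basal keratinocyte (32679 CPM) and hair follicle markers (28934 CPM). Replicate 1 had the highest sum of suprabasal markers (36499 CPM). The part of these mixtures was not tested either. Without replicate 2 the median log2 fold changes were -1.28 for S phase and -1.30 for mitosis. edgeR then called 3 members lower (Tyms, Ccnb2 and Nusap1), and 4.12% of all genes were called lower. Without replicate 3 the mitosis median was -1.37, and it called 4 members lower (Mcm5, Pcna, Ccnb2 and Cenpa), beside 4.9% of all genes.

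**Figure D4:**
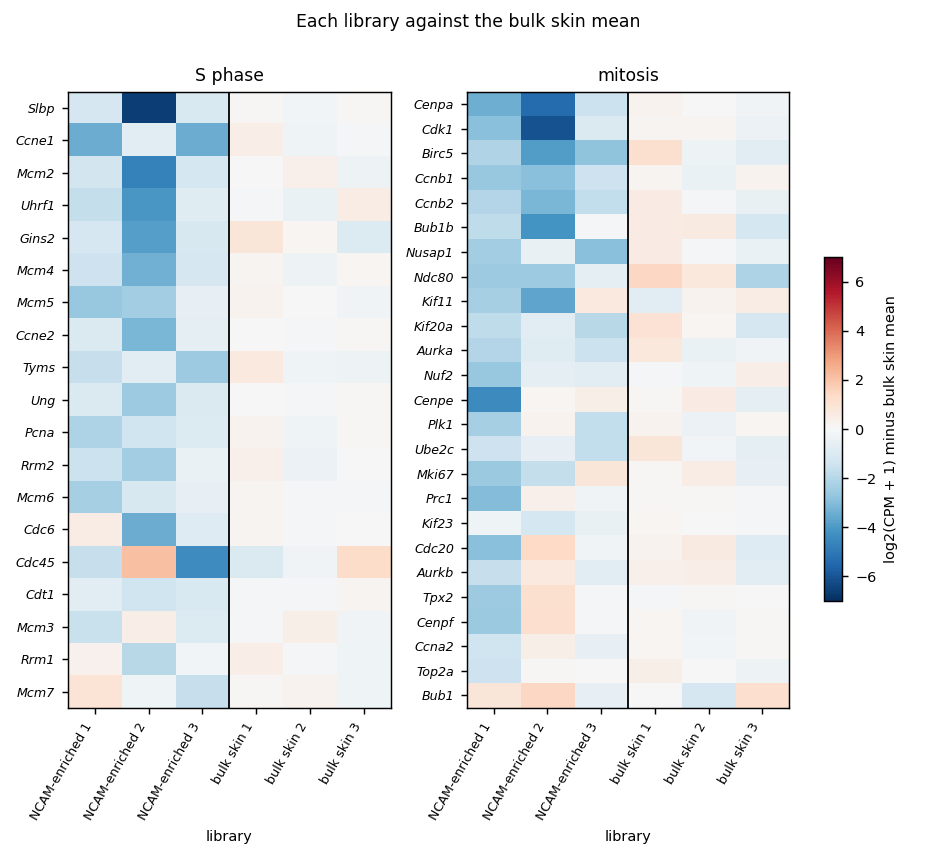
Difference of log2(CPM + 1) from the bulk skin mean in each library (columns, NCAM-enriched left of the black line) for each S phase (left) and mitosis (right) member, with blue below and red above the bulk skin mean. In NCAM-enriched replicate 1 the mitosis column is blue for 24 of 25 genes, while replicate 2 has the lowest S phase median, -2.46, and holds 7 mitosis genes above the bulk skin range. The matching shares of all genes were not computed.

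Counts of members with any read were lower in the NCAM-enriched group, as they were for all tested genes. In the NCAM-enriched libraries 18, 17 and 17 of 19 S phase genes and 23, 21 and 25 of 25 mitosis genes had at least 1 count, and in bulk skin all 44 did in every library. With each library thinned to 1343190 counts, the group means were 17.3 against 19 S phase genes and 22.7 against 24.8 mitosis genes. Of all tested genes, without thinning, 88.4% ± 5.53 against 98.7% ± 0.681 (SD, n = 3) had a count. Unthinned, the NCAM-enriched mean was 0.912 times that of bulk skin for S phase, 0.92 for mitosis and 0.896 for all tested genes. Detection cannot show whether the members stood out, since bulk skin detected all of them. The set of all tested genes was also not matched to them in level. The spread between NCAM-enriched libraries was also wide for all genes: the median coefficient of variation was 73.1% for S phase, 83.7% for mitosis and 70.1% for all genes tested, against 19.7%, 37.8% and 32.0% in bulk skin.

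Within mitosis genes the difference went with coding length, a pattern chosen after the values were seen and given without a test. The 12 tested mitosis genes with the shorter coding sequences (402 to 1497 bases in the longest transcript of GENCODE M21) had a median log2 fold change of -1.67 and 8 were without overlap, among them Cenpa, Birc5, Cdk1 and Ccnb2. The 12 with longer coding sequences (1809 to 9531 bases) had a median of -0.45, and Kif23 was the only 1 without overlap. Of all genes tested 19.3% were apart and lower, and this share was not computed by coding length. Spearman's rho of coding length with log2 fold change was 0.578 over 24 mitosis genes, 0.140 over 19 S phase genes and 0.261 over 12187 tested genes with a coding length. With exonic length it was weaker, at 0.279 for mitosis, 0.014 for S phase and 0.155 over 13148 tested genes. These points are genes measured in the same 6 libraries and are not independent. The gap was seen in replicates 2 and 3, where the longer genes had median log2 ratios to bulk skin of 0.10 and -0.16 and the shorter ones -0.73 and -1.46, and not in replicate 1 (-2.33 and -2.25). With the trend of all genes on coding length removed, the medians were -1.63 for the shorter and -0.90 for the longer genes.

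**Figure D5:**
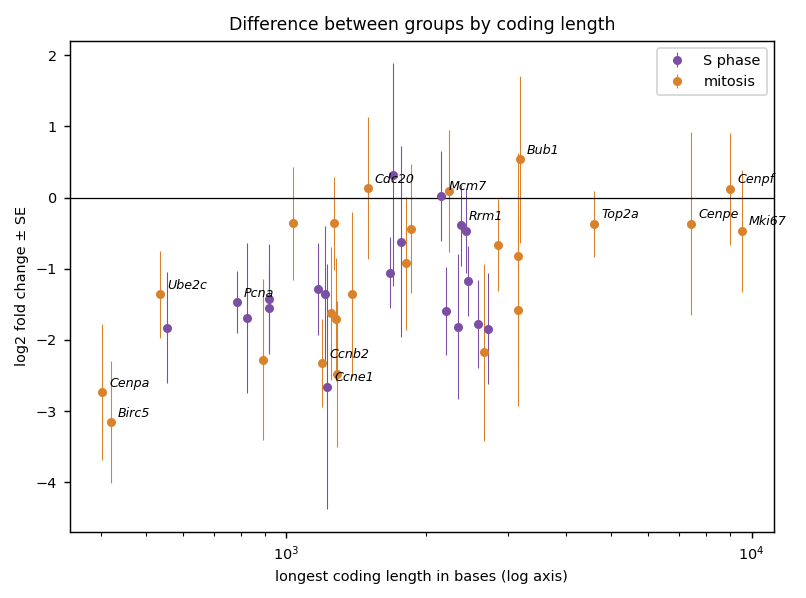
Fitted log2 fold change ± SE (y axis, NCAM-enriched over bulk skin) against the longest coding length in bases (x axis, log scale) for the 43 tested members, coloured by class. The shortest mitosis genes, Cenpa and Birc5, have the lowest mitosis values, and Top2a, Cenpe, Cenpf and Mki67 lie near 0.

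In both classes the genes without the class motif had the lower median, given as a description. The groups compared hold as few as 3 genes, and 19.3% of all genes tested were apart and lower. Mitosis genes with a CHR had a median log2 fold change of -0.83, with 5 of 15 tested genes apart and lower, and those without one -1.71, with 4 of 5 (Nusap1, Birc5 and Ccnb1 among them). The split by CCAAT box gave -0.83 with 6 of 17 apart and lower against -1.71 with 3 of 3. Birc5, Nusap1 and Nuf2, without either motif, have short coding sequences (420, 1281 and 1389 bases). Of the other genes without a CHR, Ccnb1 has a short one (1290 bases) and Cenpe a long one (7413 bases). The splits by motif and by coding length were not separated. S phase genes with an E2F motif had a median of -1.05, with 4 of 7 apart and lower, and those without -1.47, with 7 of 9. The printed promoters of Ccnb2 and Cdc20 both hold CHR and CCAAT letters, while the log2 fold changes of the genes were -2.33 ± 0.62 and 0.13 ± 0.99 (SE). The value of Cdc20 had no stable sign, with -1.22 when NCAM-enriched replicate 2 was left out.

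Further cell cycle genes, from lists of textbook members, had 0 calls in edgeR in each list. Of all genes tested, 52.3% were below 0, 19.3% were apart and lower, and 10.2% were lower at an unadjusted p of at most 0.05. Of 37 tested genes of origin licensing and the replisome, 31 were below 0 (median -0.76) and 14 were apart and lower, 8 with an unadjusted p of at most 0.05. The most abundant, Rfc1, the large subunit of the clamp loader, had 199.8, 64.1 and 106 CPM in the NCAM-enriched libraries and 172, 138 and 91.3 CPM in bulk skin. Of 45 spindle, kinetochore and condensin genes 36 were below 0 (median -0.88) and 19 apart and lower, 7 with such a p, and the most abundant, the checkpoint gene Bub3, had 129, 55.6 and 121 CPM in the NCAM-enriched libraries and 196, 182 and 177 CPM in bulk skin. Of 20 E2F, RB and MuvB regulators, 14 were below 0 (median -0.33) and none had an unadjusted p of at most 0.05, with the histone chaperone gene Rbbp4 the most abundant (90.3, 33.996 and 102 CPM in the NCAM-enriched libraries and 112, 196 and 108 CPM in bulk skin). DESeq2 called 7, 6 and 0 genes of these lists lower and limma-voom 0, 4 and 0, beside 7.1% and 6.45% of all genes.

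The CDK inhibitor genes, brakes on the cycle, were split in direction, and a difference from the other lists was not tested. Of 6 tested CDK inhibitor genes 3 were below and 3 above 0 (median 0.22), and 2 were apart and higher, beside 11.1% of all genes tested. Cdkn1a, which encodes p21, was the most abundant with 2071, 835 and 1945 CPM in the NCAM-enriched libraries and 454, 658 and 494 CPM in bulk skin. Each NCAM-enriched library was above each bulk skin library, and the difference missed the edgeR threshold (log2 fold change 1.595 ± 0.47 (SE, n = 3 per group), adjusted p = 0.09796 in edgeR). Cdkn2b, which encodes p15, had 73.3, 33.2 and 16.2 CPM in the NCAM-enriched libraries and 0, 3.03 and 0 CPM in bulk skin (log2 fold change 5.22 ± 1.58 (SE, n = 3 per group), adjusted p = 0.108 in edgeR) and was picked out after its values were seen. DESeq2 and limma-voom each called these 2 genes higher, beside 5.06% and 2.67% of all genes. Among 6 G1 cyclin and CDK genes 5 were below 0 (median -0.40), and the most abundant, the D cyclin gene Ccnd2, had 298, 501 and 892 CPM in the NCAM-enriched libraries and 952, 1355 and 819 CPM in bulk skin. Of 11 checkpoint kinase and CDC25 genes 7 were below 0 (median -0.43), 1 with an unadjusted p of at most 0.05, and Trp53, which encodes p53, was the most abundant (87.1, 27.8 and 140.5 CPM in the NCAM-enriched libraries and 221, 201 and 158 CPM in bulk skin). Of 20 tested APC/C and SCF genes 13 were below 0 (median -0.72), 3 lower and 1 higher at such a p, and the scaffold subunit gene Anapc5 was the most abundant (263, 445 and 293 CPM in the NCAM-enriched libraries and 214, 227 and 215 CPM in bulk skin). In the G1, checkpoint and APC/C lists DESeq2 called 0, 0 and 3 genes lower and limma-voom 0, 1 and 1, beside 7.1% and 6.45% of all genes. At an unadjusted p of at most 0.05, 1345 of all 13157 genes tested were lower and 1148 higher.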

How the data were processed

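Smart-seq2 libraries of 3 NCAM-enriched and 3 bulk skin samples were compared. The deposited table holds unnormalised read counts, which the authors made by clipping adapters and polyA with bbduk, removing abundant sequences with bbmap, aligning to GRCm38 with STAR and counting with featureCounts. The annotation version and any use of strand were not given in the sources used here. Since Smart-seq2 keeps no strand, overlapping genes cannot be told apart.

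Genes kept by filterByExpr were fitted with the quasi-likelihood test of edgeR 4.0.16 in R 4.3.3 after TMM scaling, with Benjamini-Hochberg adjustment over 13157 genes and calls at an adjusted p of at most 0.05. SE was taken as |log2 fold change| over the root of F. DESeq2 1.42.0, limma-voom (limma 3.58.1), other filters, other scalings, the replicate block and leaving out each library were alternatives. The code was tested on simulated data. The labels do not say that replicates came from separate animals, so p-values measure only the spread between these libraries. Same-numbered libraries did not deviate together (correlations 0.0226, 0.000250 and -0.0044), so numbers were not taken as pairs. Without molecular identifiers PCR copies count as reads, so the 3-count floor covers counting error only. Exonic and coding lengths and overlaps came from GENCODE M21, in which 54409 gene IDs were found and 123 were not. Of the lists, Skp1 and Krt85 were not found by name.

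The members and lists were chosen with earlier results of these data known. Library values are given in full for the 3 members with the smallest p and the 3 with the highest mean CPM in each class, for Mki67, Top2a, Pcna and Mcm2, and, shortly, where a role is described. From each other cell cycle list the most abundant gene is named. Python 3.11.15 and matplotlib 3.10.9 drew the figures.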

Additional observations from a re-analysis of the deposited data

How the results depend on the processing

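The medians of both classes were below 0 in all 15 alternatives, with 35 to 42 members below 0, and no alternative called a member higher. The number of calls moved more. Over all genes, 137 were called higher and 204 lower. DESeq2 gave 661 and 928, limma-voom 351 and 849, and edgeR with every gene of at least 1 count 769 and 741. Leaving out a library gave 0 to 1099 higher and 13 to 733 lower calls, with 0 higher without bulk skin replicate 1 or 2, where 2115 and 2237 genes in both directions had an unadjusted p of at most 0.05. Calls of S phase and mitosis members as lower were 1 and 3 in DESeq2 and 1 and 4 with every gene of at least 1 count. They were 0 to 2 in each class when a library was left out. With the replicate block edgeR called 50 genes higher, 92 lower and no member, with 2034 genes at an unadjusted p of at most 0.05. The mitosis median was -1.37 with the replicate block and -1.49 in limma-voom, where the median of all genes was -0.36 and -0.37 against -0.07, and -0.85 and -1.02 with the trend on exonic and on coding length removed, chosen after seeing the data (S phase -1.26 and -1.30). The cause of these shifts was not tested.

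In 11 members, most of them near 0, the sign was not stable. Other members near 0 stayed below it in every alternative, among them Top2a (-0.62 to -0.038), Ccna2 (-0.97 to -0.033) and Mcm3 (-1.28 to -0.14). For Mcm7 the log2 fold change was -0.10 with every gene of at least 1 count, -0.037 with library size only, -0.33 with the replicate block, -0.066 with upper-quartile factors, -0.60 in limma-voom and -0.88 to 0.41 with a library left out. In the same order, without values that kept their sign, Cenpf had -0.019, -0.47 (replicate block), -0.0024 (upper quartile), -0.60 (limma-voom) and -0.91 to 0.62, and Tpx2 had -0.055, -0.49, -0.035, -0.60 and -0.93 to 0.59. Cdc20 had -0.032, -0.43 (replicate block), -0.74 (limma-voom) and -1.22 to 0.65, and Cdc45 -1.07 (replicate block), -2.53 (limma-voom) and -3.19 to 1.16. Leaving out a library gave ranges that crossed 0 for Rrm1 (-0.85 to 0.012), Mki67 (-2.28 to 0.016), Bub1 (-0.0061 to 1.41), Aurkb (-1.30 to 0.0059), Cenpe (-1.06 to 0.21) and Prc1 (-1.10 to 0.073). At 1343190 counts in the shallowest library, 3 counts are 2.32 CPM, which limits what the low members can show.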
